A study of Mus musculus with 4 samples.

Results

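The T-cell receptor β chain segments TRBV12-1 and TRBV12-2 encode the mouse Vβ5.2 and Vβ5.1 chains. Their rearrangements were taken from 4 clonotype tables by the V segment listed first for each entry, and both segments together are called TRBV12 here. They made up 42088 of the 261962 listed rearrangements. Of these, 39952 were in frame (21162 with TRBV12-1 and 18790 with TRBV12-2), 1260 and 785 were out of frame and 91 were in frame with a stop codon. Each distinct junction sequence with its V and J names is called a clonotype. The junction encodes CDR3, the loop of the chain that mostly contacts the presented peptide.

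CD8+ T cells (DAPI-negative, CD45+, CD3+) had been sorted from collagenase-digested livers bearing MC38 metastases. MC38 is a colon adenocarcinoma line of the mouse, while the labels speak of melanoma. All mice carried the tumour and were sampled on day 14. The groups were wild-type (WT) mice and Vsig4-/- (Vsig4-deficient) mice, which lack a complement receptor known from liver macrophages, with 2 libraries each. Strain and age are not analysed here. Whether libraries of one genotype stem from different mice is not stated, and each p-value therefore reflects the spread of these samples alone, which may be technical. The tables hold TRB alone, and neither CD8 nor Vsig4 transcripts could be checked in them. In bulk RNA, fewer cells of a clone and less receptor RNA per cell cannot be told apart.

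A β chain is built in the thymus by joining a D to a J segment and then a V segment to that DJ. Bases are trimmed from the ends and others are added at random, so a share of joins falls out of frame. An out-of-frame join makes no β chain and persists in T cells whose other allele made a working one, which is why such joins serve as a record of rearrangement before selection on the receptor. The Vβ5 chains are widely followed with antibodies, and the OT-I transgenic receptor carries one. In many laboratory strains T cells with some Vβ chains, Vβ5 among them, are deleted by superantigens of endogenous retroviruses, in a way that depends on the MHC class II molecules of the strain.

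RefSeq's annotation (GRCm38.p6) places Trbv12-1 on chromosome 6 from 41113567 to 41114067 and Trbv12-2 on the same chromosome from 41118864 to 41119364. Trbv13-1 sits between them (41116036 to 41116468). The related Trbv12-3 (41127592 to 41128076) is annotated as a pseudogene and was not among the members. Both segments end in the same germline bases, and the stretch given here is the commonest start of the CDR3 among clonotypes with no V base trimmed or added by the tables' V match. It was found in 93.4% of those clonotypes for each segment (2084 of 2231 with TRBV12-1, 1959 of 2098 with TRBV12-2), and it translates to CASSL. It is shown because the CDR3 start cannot tell the members apart.
TRBV12-1 germline end of the V segment: tgtgccagctctctc
TRBV12-2 germline end of the V segment: tgtgccagctctctc

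Since the V end is shared, most of what differs between clonotypes lies in the junction. The CDR3 sequences that follow are the largest clonotype of each segment in each library, shown because clone sizes are described further on. Capitals mark the bases between the end of the V match and the start of the J match. The V match can run past the germline end into palindromic bases, which arise when the hairpin at the cut end is opened off its tip. The V match can also hold a mismatch. The TRBV12-2 sequence of wild-type 1 encodes CASSF in place of CASSL, and the changed base lies within its V match. How that change arose was not tested.
TRBV12-1, wild-type 1, TRBJ2-1, 476 counts: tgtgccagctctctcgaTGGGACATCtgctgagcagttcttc
TRBV12-1, wild-type 2, TRBJ2-4, 3191 counts: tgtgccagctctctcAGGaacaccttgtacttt
TRBV12-1, Vsig4-deficient 1, TRBJ1-6, 1856 counts: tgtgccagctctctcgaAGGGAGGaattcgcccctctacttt
TRBV12-1, Vsig4-deficient 2, TRBJ1-6, 4139 counts: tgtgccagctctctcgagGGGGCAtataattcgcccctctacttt
TRBV12-2, wild-type 1, TRBJ2-7, 1024 counts: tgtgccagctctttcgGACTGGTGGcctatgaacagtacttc
TRBV12-2, wild-type 2, TRBJ2-1, 156 counts: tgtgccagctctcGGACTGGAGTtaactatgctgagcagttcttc
TRBV12-2, Vsig4-deficient 1, TRBJ1-6, 9237 counts: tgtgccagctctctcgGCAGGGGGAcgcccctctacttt
TRBV12-2, Vsig4-deficient 2, TRBJ2-4, 25438 counts: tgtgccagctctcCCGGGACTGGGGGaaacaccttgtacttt
The largest of all, in Vsig4-deficient 2, reads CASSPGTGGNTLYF, and the largest in Vsig4-deficient 1 reads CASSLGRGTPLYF.

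The libraries held 901567 to 1269480 counts, and in-frame rearrangements 857452 to 1227914 of them in 47017 to 73769 clonotypes. Large clonotypes of one library recurred at low counts in others. All 8 TRBV12 clonotypes above 0.1% of in-frame counts in Vsig4-deficient 1 were also listed in Vsig4-deficient 2 with 13 to 189 counts, at a median of 1.58% of their share in the first. Over all TRBV, 70 of 71 such clonotypes of Vsig4-deficient 1 were listed there, at a median of 1.56%. In the other direction 7 of 10 large TRBV12 clonotypes of Vsig4-deficient 2 were listed in Vsig4-deficient 1, at a median of 0.112%. How these low counts arose was not tested. With clonotypes below 1% of their share in another library left out, 0 TRBV were called between genotypes by clonotypes or by counts (edgeR), as with them.

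Within a library no CDR3 with its J segment was listed under more than 1 TRBV. Between libraries, 3494 TRBV12 CDR3 nucleotide sequences with their J were found in 2 or more libraries, and 1028 of them (29.4%) were listed as TRBV12-1 in one library and as TRBV12-2 in another. That share was 24.1% for CDR3s found in 2 libraries, 53.1% in 3 and 64.4% in 4. Among the pairs of libraries it ran from 19.1%, between both Vsig4-deficient libraries, to 40.6%. The examples that follow were found with the same sequence in all 4 libraries.
Listed as TRBV12-2 except in Vsig4-deficient 2 (TRBV12-1), TRBJ2-4: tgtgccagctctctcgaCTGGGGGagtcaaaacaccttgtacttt
Listed as TRBV12-1 in wild-type and TRBV12-2 in Vsig4-deficient libraries, TRBJ1-3: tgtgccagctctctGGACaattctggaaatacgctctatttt
Listed as TRBV12-2 in wild-type 1 and TRBV12-1 elsewhere, TRBJ2-1: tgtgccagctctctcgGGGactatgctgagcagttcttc
The tables thus give 1 V segment per CDR3 with its J in a library, and a CDR3 made with both segments in 1 library could appear under only 1 of them. The same was seen for other pairs, with 972 CDR3s listed under both TRBV13-1 and TRBV13-3. Tied V hits were few (0.201% to 0.624% of TRBV12 rearrangements).

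The first question was how often each segment was used. TRBV12-1 took 8.92%, 9.03%, 9.66% and 8.15% of in-frame clonotypes in the libraries wild-type 1, wild-type 2, Vsig4-deficient 1 and Vsig4-deficient 2, the order used throughout. TRBV12-2 took 7.77%, 7.44%, 8.54% and 7.97%. TRBV12-1 was the higher of the pair in each library, narrowly so in Vsig4-deficient 2. With means of 8.94% ± 0.620 and 7.93% ± 0.463 (SD, n = 4) they were the fifth and the sixth of 26 listed segments. TRBV12-1 overlapped with the segment above it, TRBV3 (9.14% ± 0.314), and TRBV12-2 with the segment below it, TRBV1 (7.10% ± 0.718, above TRBV12-2 in Vsig4-deficient 2).

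By counts both segments took smaller shares. TRBV12-1 held 4.17%, 5.01%, 3.59% and 2.88% of in-frame counts and TRBV12-2 held 4.11%, 4.23%, 5.03% and 6.30%. The share of TRBV12 in counts was below its share in clonotypes in 4 of 4 libraries, with a log2 ratio of counts share to clonotype share of -0.93 ± 0.13 (SD, n = 4). The two-sided exact sign-flip test gave p = 0.13, the smallest that 4 libraries allow. In-frame TRBV12 clonotypes averaged 9.14, 6.52, 9.66 and 9.97 counts, against 20.3, 12.6, 22.8 and 19.0 counts for the other TRBV. The groups of values do not overlap. Among the 22 segments ranked by counts per in-frame clonotype, TRBV12-2 (10.5 ± 3.12) was the eleventh and TRBV12-1 (7.20 ± 1.12, SD, n = 4) the fourteenth, so other segments had smaller clonotypes still.

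The gap to the pooled other TRBV was also present without the largest clonotypes. Without the 10 largest of each set, TRBV12 averaged 8.74, 6.16, 7.12 and 5.29 counts and the other TRBV 18.3, 11.9, 16.6 and 13.3. It was also present in joins that make no β chain, at 3.61, 3.24, 3.73 and 6.47 counts per out-of-frame TRBV12 clonotype against 8.92, 5.82, 8.73 and 8.43. For TRBV12-1 alone the gap was absent in Vsig4-deficient 2, at 8.45 counts. The median clonotype differed less, with 6, 4, 4 and 2 counts for TRBV12 and 7, 6, 5 and 3 for the others.

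**Figure D1:**
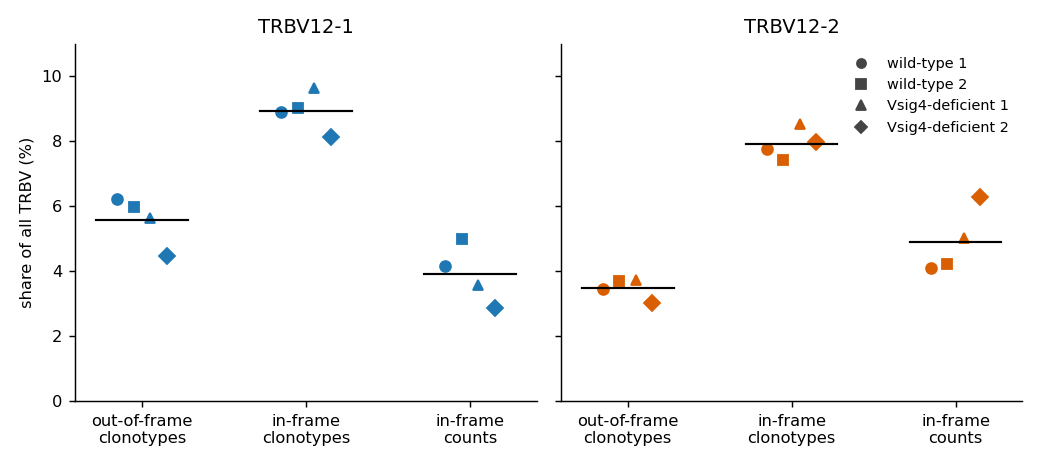
Share of TRBV12-1 (left) and TRBV12-2 (right) among all TRBV in each library, in percent, among out-of-frame clonotypes, in-frame clonotypes and in-frame counts; symbols mark the 4 libraries and bars the mean. Both segments are highest among in-frame clonotypes, with means of 8.94% and 7.93%, and their shares of counts move apart in the Vsig4-deficient libraries.

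The next comparison asked whether joins of each segment were found in frame more often than those of other segments. Both segments took a larger share in frame than out of frame. Among out-of-frame clonotypes TRBV12-1 took 6.24%, 5.98%, 5.65% and 4.47% and TRBV12-2 took 3.47%, 3.69%, 3.73% and 3.03%, so each in-frame share lay above its out-of-frame share in 4 of 4 libraries. The log2 ratio of the shares was 0.68 ± 0.06 for TRBV12-1 and 1.18 ± 0.06 for TRBV12-2 (fit ± SE). The adjusted p was 1.5e-17 and 8.7e-28 by edgeR's quasi-likelihood test with the libraries as blocks. The same call, higher in frame, was made for 7 of 24 segments (29.2%), and another 8 were lower, with a median of 0.03 over all 24. TRBV12-2 stood beside TRBV14 (1.19) and TRBV16 (1.10) at the top of that order, and TRBV29 (0.73) stood beside TRBV12-1. Out of frame, clonotypes with 1 count made up on average 34.6% of TRBV12-1, 43.3% of TRBV12-2 and 29.1% of other clonotypes. In frame these shares were alike, at 23.2%, 22.5% and 23.3%, so the out-of-frame tallies of the members lay nearer the lowest count.

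The ratio was larger for TRBV12-2 than for TRBV12-1 in every library, by 0.64, 0.42, 0.42 and 0.53 on the log2 scale. Expressed as the share of joins found out of frame, TRBV12-1 had 6.56%, 6.46%, 5.85% and 3.71%, TRBV12-2 had 4.30%, 4.92%, 4.43% and 2.60%, and the other TRBV together had 9.82%, 10.1%, 10.5% and 7.18%. Vsig4-deficient 2 was lowest for each. Shares of one table sum to a whole, so the low in-frame use of other segments, such as TRBV31 (-2.02), raises the rest by a common factor.

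**Figure D2:**
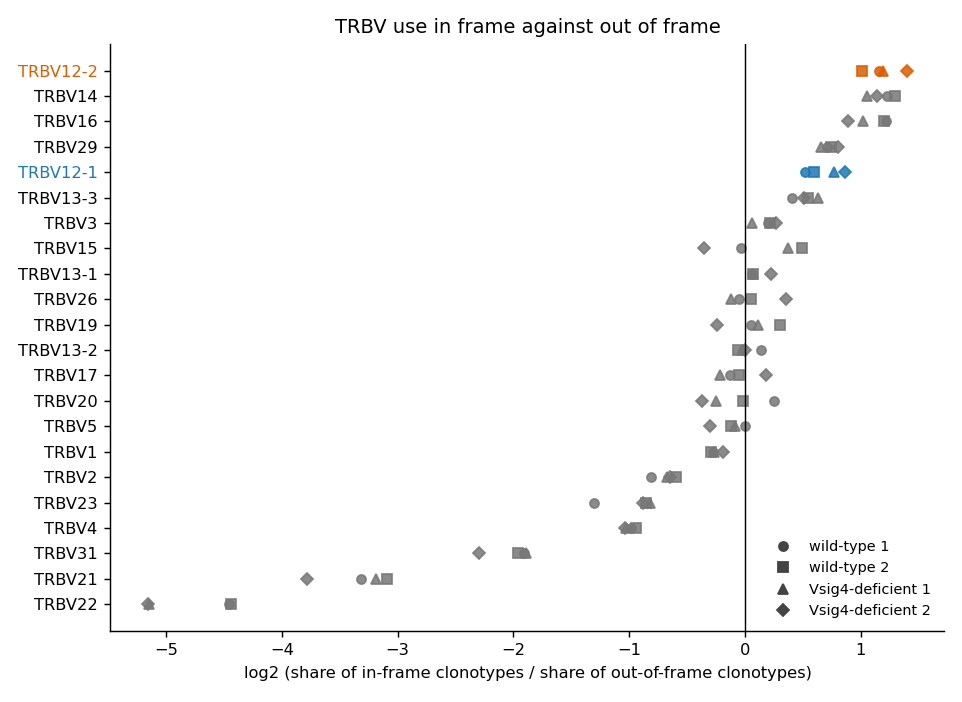
Log2 ratio of each segment's share of in-frame clonotypes to its share of out-of-frame clonotypes, for the 22 segments with at least 10 of each in every library; symbols mark libraries. TRBV12-2 (orange, mean 1.19) and TRBV12-1 (blue, mean 0.69) lie right of 0 in all 4 libraries.

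Neither segment differed in use between genotypes past the threshold of 0.05 on the adjusted p. By in-frame clonotypes, the log2 difference of Vsig4-deficient from wild-type was -0.01 ± 0.12 for TRBV12-1 (adjusted p = 0.97, edgeR) and 0.12 ± 0.09 for TRBV12-2 (adjusted p = 0.61, edgeR). No segment was called (0 of 23, 0%), 1 had an unadjusted p under 0.05, and DESeq2 called 0. Without Vsig4-deficient 1, 12 segments were called. Out of frame, TRBV12-1 had -0.27 ± 0.16 and TRBV12-2 -0.09 ± 0.17 (adjusted p = 0.97 for both, edgeR). There 0 of 24 segments (0%) were called, 0 had an unadjusted p under 0.05, and DESeq2 called 0. Without Vsig4-deficient 1, 3 were called, and TRBV12-1 was one of them (-0.44, adjusted p = 0.0071, edgeR).

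By counts the values of the members had opposite signs, at -0.51 ± 0.36 for TRBV12-1 and 0.44 ± 0.36 for TRBV12-2 (adjusted p = 0.55 for both, edgeR). In this fit 0 of 24 segments (0%) were called, 3 had an unadjusted p under 0.05, and DESeq2 called 1. The median over all segments was -0.30. TMM normalization moved that median by 0.23 and DESeq2's size factors by 0.32, and both kept the sign for TRBV12-1 (-0.29 and -0.19) and for TRBV12-2 (0.70 and 0.77).

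The log2 ratio of in-frame to out-of-frame use differed between Vsig4-deficient and wild-type libraries by 0.26 for TRBV12-1 (adjusted p = 0.47, edgeR) and by 0.22 for TRBV12-2 (adjusted p = 0.64, edgeR). This difference of differences passed for 0 of 24 segments (0%), with 1 at an unadjusted p under 0.05 (TRBV12-1) and 0 by DESeq2. Without Vsig4-deficient 1, 2 segments were called.

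J segments supply the last residues of the CDR3, and the J clusters lie behind the V segments, each after its own D segment (TRBD1 before the TRBJ1 cluster, TRBD2 before the TRBJ2 cluster). The TRBJ1 cluster took 30.2% ± 1.42 of TRBV12-1 and 29.8% ± 1.15 of TRBV12-2 in-frame clonotypes (SD, n = 4). TRBJ2-7, TRBJ2-1 and TRBJ2-5 were used most. The order of the latter pair differed between the members. TRBJ2-1 took 16.2%, 16.6%, 15.8% and 18.0% of TRBV12-1 and 11.7%, 13.2%, 11.3% and 13.1% of TRBV12-2 clonotypes. TRBJ2-5 took 9.85%, 11.2%, 11.1% and 9.92% of TRBV12-1 and 15.6%, 14.9%, 15.5% and 14.7% of TRBV12-2 clonotypes. For both J segments the members do not overlap in any library.

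Tested directly, 10 of 12 J segments (83.3%) differed between TRBV12-2 and TRBV12-1 in frame by edgeR's quasi-likelihood test. Of these, 5 were higher with TRBV12-2, namely TRBJ1-5 (log2 0.97 ± 0.10, SE), TRBJ2-5 (0.52 ± 0.04), TRBJ1-1 (0.44 ± 0.05), TRBJ2-2 (0.33 ± 0.06) and TRBJ1-6 (0.27 ± 0.09). The other 5 were higher with TRBV12-1, namely TRBJ1-2 (-0.52 ± 0.05), TRBJ2-1 (-0.42 ± 0.04), TRBJ1-4 (-0.29 ± 0.06), TRBJ2-3 (-0.20 ± 0.05) and TRBJ1-3 (-0.17 ± 0.07). Adjusted p ran from 9.1e-14 for TRBJ2-5 to 0.0268 for TRBJ1-3. TRBJ2-7 (-0.04) and TRBJ2-4 (0.07) did not pass.

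TRBJ1-5 showed the largest ratio at a low level, with 1.37%, 1.23%, 1.67% and 1.44% of TRBV12-1 against 2.73%, 2.91%, 3.06% and 2.38% of TRBV12-2 clonotypes. TRBJ1-2 went the other way, with 9.59%, 9.56%, 8.57% and 10.6% of TRBV12-1 against 6.20%, 7.07%, 6.67% and 6.78% of TRBV12-2. With the 1028 CDR3s listed under both members left out, 10 of 12 were called. A CDR3 found in only 1 library could not be left out this way, so this does not show that V naming is without effect. Among the calls, TRBJ1-3 and TRBJ1-6 were lost with DESeq2 and when wild-type 1 was left out, TRBJ1-6 without clonotypes of 1 count, and TRBJ1-3 and TRBJ2-3 without wild-type 2.

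Out of frame, the same comparison passed for 0 of 12 J segments (0%) by edgeR, with 3 at an unadjusted p under 0.05 and 0 by DESeq2. It rested on 1260 and 785 clonotypes, against 21162 and 18790 in frame. TRBJ2-5, at 8.64% to 13.7% of TRBV12-1 and 10.8% to 16.1% of TRBV12-2, had a log2 difference of 0.18, and TRBJ1-5 one of 0.23. TRBJ1-2 had -0.59, close to its in-frame difference, and TRBJ2-2 had 0.84 (adjusted p = 0.094, edgeR). At this depth the in-frame differences were not detectable among out-of-frame joins, and a like difference there may have been missed.

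**Figure D3:**
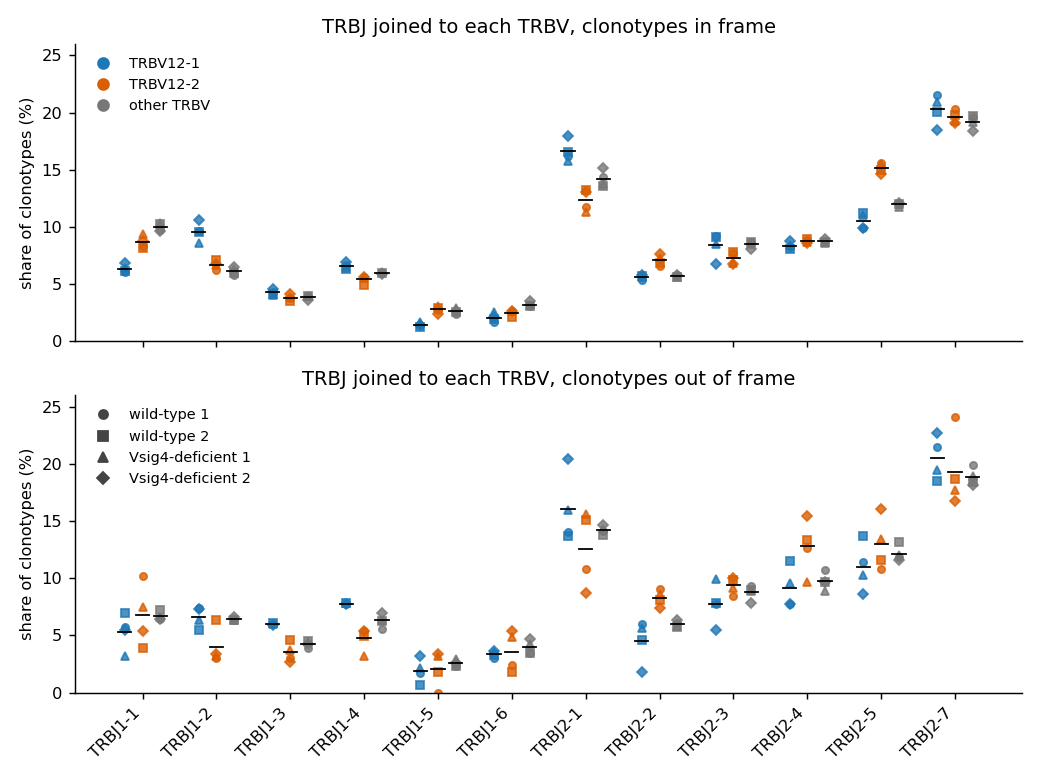
Share of each TRBJ among clonotypes of TRBV12-1, TRBV12-2 and all other TRBV, in percent, in frame (top) and out of frame (bottom); symbols mark libraries and bars the mean of 4. In frame, TRBJ2-1 and TRBJ2-5 separate the members, and out of frame the 4 libraries spread widely.

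Against all other TRBV, the pooled TRBV12 clonotypes differed in 5 of 12 J segments in frame (41.7%) by edgeR. TRBJ1-6 (-0.51 ± 0.06), TRBJ1-1 (-0.43 ± 0.04) and TRBJ1-5 (-0.34 ± 0.05) were used less with TRBV12, and TRBJ1-2 (0.42 ± 0.04) and TRBJ2-2 (0.15 ± 0.04) more. Adjusted p lay between 1.6e-04 and 0.0125, and the call for TRBJ2-2 was lost without Vsig4-deficient 1. The members did not share these shifts evenly. TRBJ1-5 stood at 1.43% ± 0.185 with TRBV12-1, 2.77% ± 0.295 with TRBV12-2 and 2.60% ± 0.213 with other TRBV. TRBJ1-2 stood at 9.58% ± 0.833, 6.68% ± 0.362 and 6.15% ± 0.341. Out of frame 0 of 12 (0%) were called by edgeR, with 0 at an unadjusted p under 0.05 and 0 by DESeq2.

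Likeness of J use was measured as the share of clonotypes that would have to change J for the profiles to match (total variation distance), averaged over the 4 libraries, among the 17 segments with at least 500 in-frame clonotypes in every library. TRBV12-1 was closest to TRBV3, TRBV2 and TRBV13-3, and TRBV12-2 to TRBV13-2 (5.68 points), TRBV3 and TRBV2. The members were 10.8 points apart, which placed each of them at rank 11 of 16 from the other. Between libraries the profile of a single member differed by 4.15 points on average for TRBV12-1 and by 3.23 for TRBV12-2 (6 pairs each).

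J use within TRBV12 was then compared between genotypes. No J segment was called in frame (0 of 12, 0%, edgeR), 3 had an unadjusted p under 0.05, and DESeq2 called 0. Those were TRBJ1-1 (0.14), TRBJ1-6 (0.26) and TRBJ2-3 (-0.24), each with an adjusted p of 0.14. TRBJ2-3 was called without Vsig4-deficient 1 (-0.33, adjusted p = 0.0302, edgeR). Its shares of TRBV12 clonotypes were 8.51% and 8.50% for the wild-type and 7.70% and 6.74% for the Vsig4-deficient group. Among other TRBV the groups lay in the same order but closer, at 8.64% and 8.69% against 8.52% and 8.03%.

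D segments were read where the tables assigned one. TRBD2 lies behind the TRBJ1 cluster, so a plain deletional join of TRBD2 to TRBJ1 cannot form. In frame, 4.01% ± 0.568 of TRBV12 clonotypes with a TRBJ1 segment were nevertheless listed with TRBD2 (4.95% ± 0.278 for other TRBV), so a D name at these short segments is not always right. Among TRBV12 clonotypes joined to TRBJ2, TRBD1 was listed in 31.3%, 31.3%, 32.8% and 33.9%, against 35.2%, 34.8%, 36.6% and 36.4% for other TRBV. TRBV12 was lower in 4 of 4 libraries, with a difference of -3.42 ± 0.637 percentage points (SD, n = 4). The exact sign-flip test gave p = 0.13, the smallest possible. Weighted by counts the difference was -10.8 points. Out of frame TRBV12 lay between 34.9% and 35.6% and the other TRBV between 34.6% and 36.6%.

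CDR3 length was close to that of other chains. The mean was 13.95 residues for TRBV12 in wild-type 1 and 13.95, 13.95 and 13.94 in the other libraries, against 13.94, 13.92, 13.94 and 13.96 for other TRBV. The difference was 0.01 ± 0.02 residues (SD, n = 4, exact sign-flip p = 0.5), between TRBV12-2 and TRBV12-1 0.002 ± 0.029 (exact sign-flip p = 0.875), and between genotypes -0.007 (exact permutation p = 0.667 with 2 libraries a group). The direction of all 3 changed with the weighting or the libraries used. The spread of lengths was narrower. Loops of 11 residues or fewer made up 3.28% ± 0.127 of TRBV12-1, 4.68% ± 0.272 of TRBV12-2 and 5.89% ± 0.190 of other clonotypes. Loops of 17 residues or more made up 2.12% ± 0.227, 2.48% ± 0.109 and 3.02% ± 0.128. The 4 libraries of each short-loop set do not overlap with those of another, and 14 residues was the commonest length at 32.3% for both members.

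The V end and the J start of TRBV12 clonotypes lay 9.28, 9.33, 9.40 and 9.26 bases apart in frame and 9.86, 9.85, 9.95 and 10.1 bases apart out of frame, where the distance is negative for the 1.5% to 1.7% of in-frame clonotypes whose V and J matches overlap. In-frame joins were shorter in 4 of 4 libraries, with a difference of -0.62 ± 0.13 bases (SD, n = 4, exact sign-flip p = 0.13, the smallest possible). Without clonotypes of 1 count the difference was -0.38 bases, more than 1.5 times smaller. CDR3 length itself varied more out of frame (SD 5.11 bases) than in frame (SD 4.10 bases). Other TRBV showed both features, with a mean distance of 9.50 bases in frame and 9.93 out of frame. Their SDs of CDR3 length were 4.47 bases in frame and 5.10 out of frame. The whole V end was kept in 38.9% ± 0.526 of in-frame and 35.6% ± 1.92 of out-of-frame TRBV12 clonotypes. For other TRBV the order was the reverse, with 22.3% ± 0.246 in frame and 28.5% ± 0.822 out of frame.

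Position 5 of the CDR3, the last that the V segment can encode, was leucine in 51.3% ± 0.737 of TRBV12-1 and 50.8% ± 0.530 of TRBV12-2 in-frame clonotypes, followed by proline (23.5% ± 0.361 and 22.5% ± 0.715) and arginine (6.95% and 7.49%). Position 6 is made by the junction. Among clonotypes of 13 residues or more, glycine was commonest there with both members (30.2% and 31.4%). Aspartate, the second, was found in 13.9%, 12.8%, 12.7% and 13.7% of TRBV12-1 and in 18.7%, 19.0%, 18.6% and 18.9% of TRBV12-2 clonotypes. The members do not overlap.

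This comparison was chosen after the J results had been seen. By edgeR 8 of 19 residues (42.1%) differed. Aspartate (0.51 ± 0.04), asparagine (0.50 ± 0.14) and lysine (0.84 ± 0.21) were more frequent with TRBV12-2, and proline (-0.65 ± 0.09), arginine (-0.42 ± 0.05), valine (-0.40 ± 0.08), glutamine (-0.24 ± 0.09) and threonine (-0.20 ± 0.05) with TRBV12-1. The calls for glutamine and threonine were lost with DESeq2. That for glutamine was also lost without clonotypes of 1 count and without Vsig4-deficient 1, wild-type 1 or wild-type 2. Arginine is positively and aspartate negatively charged, while lysine, which moved with aspartate, is also positive.

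Aspartate followed by tryptophan and glycine was then counted at any position and in CDR3s of every length, so not at position 6 alone. The motif DWG, a reading of TRBD2 in one of its frames, was present in 8.72%, 8.29%, 7.07% and 8.09% of TRBV12-2 and in 6.15%, 5.75%, 5.48% and 5.11% of TRBV12-1 clonotypes. It was more frequent with TRBV12-2 in 4 of 4 libraries, by 2.42 ± 0.589 points (SD, n = 4, exact sign-flip p = 0.13, the smallest possible, and chosen after the residues were seen). Other TRBV had 5.26% ± 0.259. Among clonotypes with TRBD2 listed, the share was 22.9% ± 1.64 with TRBV12-2, 16.4% ± 1.03 with TRBV12-1 and 16.2% ± 0.492 with other TRBV. TGG and LGG, readings of TRBD2 in its other frames, lay closer together between the members. Neither is specific to TRBD2. A large TRBV12-2 clonotype of wild-type 1 carried TGG with TRBD1 listed, and the leucine of LGG can be encoded by the V segment. TGG was found in 6.82% of TRBV12-1 and 6.92% of TRBV12-2 clonotypes, and LGG in 7.28% and 7.04% (4.68% for other TRBV). Among clonotypes with TRBD2 listed, TGG was found in 13.7% with TRBV12-1, 13.2% with TRBV12-2 and 13.2% with other TRBV. For LGG these shares were 15.97%, 15.1% and 13.2%. The first of the CDR3 sequences above that are listed under both members carries DWG.

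**Figure D4:**
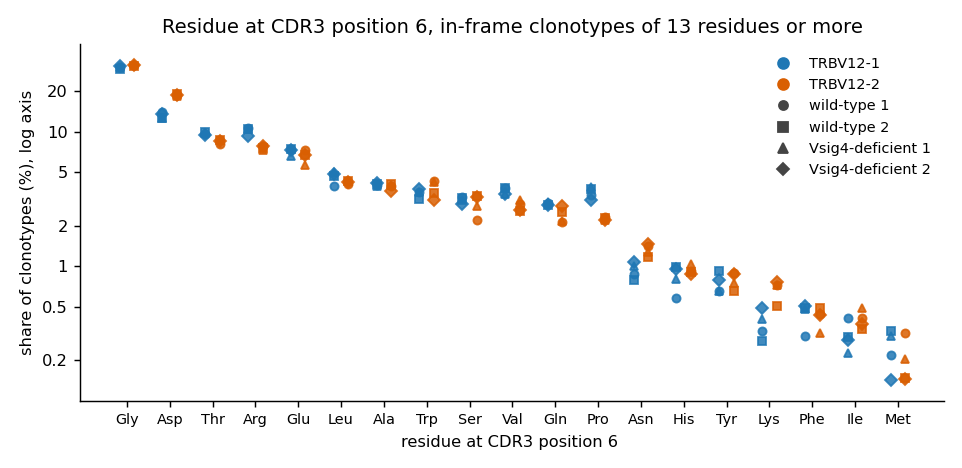
Share of in-frame clonotypes of 13 residues or more with each residue at CDR3 position 6, for TRBV12-1 (blue) and TRBV12-2 (orange), on a log axis in percent; symbols mark libraries. Aspartate (Asp) lies near 19% with TRBV12-2 and 13% with TRBV12-1, and proline (Pro) and arginine (Arg) lie lower with TRBV12-2.

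Large clonotypes made up more of the TRBV12 counts in each Vsig4-deficient library than in each wild-type library. The 10 largest TRBV12 clonotypes held 4.44% and 5.60% of TRBV12 counts for the wild-type group and 26.3% and 47.0% for the Vsig4-deficient group. The groups do not overlap, with a difference in means of 31.7 percentage points. By a two-sided exact permutation test p was 0.33, the smallest that 2 against 2 libraries allow. Clonotypes above 0.1% of all in-frame counts numbered 1 and 1 for the wild-type group and 8 and 10 for the Vsig4-deficient group. They held 1.41% and 4.03% against 24.4% and 47.0% of TRBV12 counts (difference 33.0 points, exact permutation p = 0.33). Without Vsig4-deficient 2 that difference was 21.7 points, more than 1.5 times smaller. The groups of the other TRBV lay in the same order, with 9.73% and 5.45% of their counts in the 10 largest clonotypes of wild-type and 27.0% and 29.8% in those of the Vsig4-deficient group. That set holds more clonotypes, so the 10 largest are a smaller part of it. Other TRBV clonotypes above 0.1% numbered 29 and 20 for the wild-type group and 63 and 50 for the Vsig4-deficient group. They held 12.7% and 6.85% against 43.1% and 38.1% of the counts of other TRBV, so this rise was not particular to TRBV12. TRBV12 supplied 3.33% and 4.76% of all clonotypes above 0.1% for the wild-type group and 11.3% and 16.7% for the Vsig4-deficient group, where it made up 16.1% to 18.2% of in-frame clonotypes.

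The large clonotypes were unevenly split between the members. TRBV12-2 had 1, 0, 6 and 7 clonotypes above 0.1%, and TRBV12-1 had 0, 1, 2 and 3. The 10 largest TRBV12-2 clonotypes held 6.56% and 3.32% of that segment's counts for the wild-type group and 38.5% and 61.7% for the Vsig4-deficient group. For TRBV12-1 these shares were 5.14% and 9.64% against 19.7% and 30.5%. In Vsig4-deficient 2, 4 TRBV12-2 clonotypes made up 50% of the segment's counts, against 79 in Vsig4-deficient 1 and 598 and 999 for the wild-type group. TRBV12-1 needed 715 and 1189 clonotypes for the wild-type group and 500 and 272 for the Vsig4-deficient group.

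The balance of counts between the members was compared next. The log2 ratio of TRBV12-2 to TRBV12-1 counts was -0.02 and -0.24 for the wild-type group and 0.49 and 1.13 for the Vsig4-deficient group. The groups do not overlap, and the difference of 0.94 had an exact permutation p of 0.33, the smallest possible. This ratio was added after the data were seen. It was 0.62 without Vsig4-deficient 2, more than 1.5 times smaller. By clonotypes TRBV12-1 stayed the more frequent in every library.

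**Figure D5:**
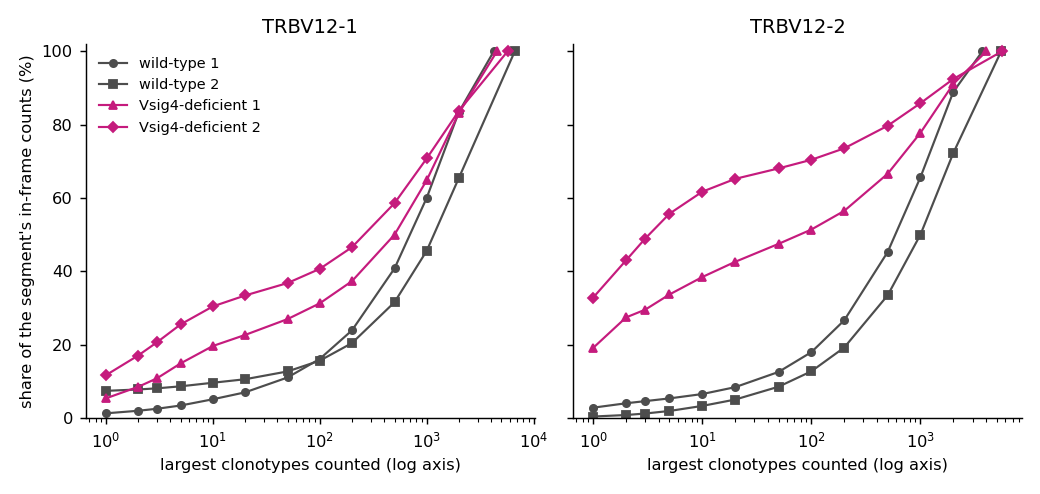
Cumulative share of each segment's in-frame counts, in percent, against the number of its largest clonotypes counted (log axis), for wild-type (grey) and Vsig4-deficient (magenta) libraries. The 10 largest TRBV12-2 clonotypes reach 38.5% and 61.7% in Vsig4-deficient and 6.56% and 3.32% among the wild-type curves.

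The clonotypes behind these values were each large in 1 library. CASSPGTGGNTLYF (TRBV12-2, TRBJ2-4) had 25438 counts in Vsig4-deficient 2, or 2.07% of in-frame counts (95% Wilson interval 2.05% to 2.10%, covering counting error only), 41 in Vsig4-deficient 1, 1 in wild-type 2 and 0 in wild-type 1. Counts in other libraries are those under the same V name, and this sequence was listed under no other TRBV in any library. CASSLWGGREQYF (TRBJ2-7, 7849 counts) and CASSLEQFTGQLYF (TRBJ2-2, 4607 counts) followed in Vsig4-deficient 2. In Vsig4-deficient 1 the largest TRBV12-2 clonotypes were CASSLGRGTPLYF (TRBJ1-6, 9237 counts, 0.964%) and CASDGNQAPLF (TRBJ1-5, 4004 counts). The next, of 16 residues with TRBJ2-2, had 1023 counts. The largest in wild-type 1 was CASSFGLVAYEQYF (TRBJ2-7, 1024 counts, 0.117%), ahead of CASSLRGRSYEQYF (430 counts) and one with TRBJ1-4 (212 counts). In wild-type 2 none passed 156 counts, and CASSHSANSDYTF (150 counts) and one with TRBJ2-3 (147 counts) came next.

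Among TRBV12-1 clonotypes the single large one in wild-type was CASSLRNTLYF (TRBJ2-4), with 3191 counts in wild-type 2 (0.372%) and 10, 3 and 5 counts elsewhere. It was followed there by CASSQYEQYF (163 counts) and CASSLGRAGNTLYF (132 counts). In wild-type 1 the largest were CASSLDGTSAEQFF (476 counts), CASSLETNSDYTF (255) and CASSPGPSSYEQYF (199). Vsig4-deficient 1 had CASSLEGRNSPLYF (TRBJ1-6, 1856 counts), one of 16 residues with TRBJ1-3 (1075 counts) and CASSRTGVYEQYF (802 counts). Vsig4-deficient 2 had one of 15 residues with TRBJ1-6 (4139 counts), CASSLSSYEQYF (1894 counts) and one of 16 residues with TRBJ2-3 (1274 counts).

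The largest TRBV12-1 clonotypes of both Vsig4-deficient libraries used TRBJ1-6 and began with CASSLEG, as the sequences given at the start show. This likeness was picked after the values were seen. Clonotypes of that kind numbered 1, 0, 3 and 4 and held 47, 0, 1864 and 4180 counts. These were 5.95%, 0%, 72.9% and 90.1% of the counts of TRBV12-1 with TRBJ1-6. The largest clonotype alone held 1856 of the 1864 counts in Vsig4-deficient 1 and 4139 of the 4180 in Vsig4-deficient 2. The former was also listed in Vsig4-deficient 2 with 37 counts, and the latter in Vsig4-deficient 1 with 4. The high shares thus rest on 1 clonotype in each library. TRBJ1-6 as a whole took 2.16% and 1.77% of TRBV12-1 counts for the wild-type group and 7.43% and 13.1% for the Vsig4-deficient group, while by clonotypes it took 1.67% and 1.94% against 2.53% and 2.07%.

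Sharing between libraries was counted by CDR3 amino acids with V and J. The low counts of clonotypes that were large in another library, described above, were kept, so part of the sharing rests on them. Of the TRBV12 clonotypes so defined, 24870 of 29699 (83.7%) belonged to 1 library. Those of 2 libraries numbered 3525, those of 3 numbered 953, and 351 (1.18%) were found everywhere. The share in all 4 was 1.12% for TRBV12-1, 1.25% for TRBV12-2 and 0.775% for other TRBV. Because the V name is part of this count, a CDR3 listed under different members in different libraries counts separately under each. With both members taken as 1 segment, 590 of 26732 clonotypes (2.21%) were found in all 4 libraries and 21512 (80.5%) in 1. Clonotypes in 4 libraries had shorter loops than those in 1 (13.5 ± 1.16 against 14.1 ± 1.41 residues, SD over clonotypes), a shorter stretch between V and J (7.44 against 10.1 bases) and more nucleotide forms (5.05 against 1.03). They kept the germline CASSL start more often (64.1% against 45.7%). These are descriptions, and since a clonotype with more forms has more chances to be listed, the measures are not independent. TRBJ2-7 (22.2%), TRBJ2-5 (18.5%) and TRBJ2-1 (16.2%) were the commonest J segments among the 351.

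By mean share, the first of the 351 were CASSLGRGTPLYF, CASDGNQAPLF, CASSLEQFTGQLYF, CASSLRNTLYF and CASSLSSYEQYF, each placed there by 1 library. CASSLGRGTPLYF had 4, 1, 9237 and 189 counts in the 4 libraries. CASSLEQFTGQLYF had 5, 1, 3 and 4607. The clonotype with the highest share in its lowest library was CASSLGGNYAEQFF (TRBV12-1, TRBJ2-1), with 78, 96, 169 and 39 counts in 12 nucleotide forms. After it came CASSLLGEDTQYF (TRBV12-2, TRBJ2-5), with 48, 30, 180 and 35 counts in 13 forms. Their commonest forms are given here as examples of clonotypes listed in every library.
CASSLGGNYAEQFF, TRBV12-1: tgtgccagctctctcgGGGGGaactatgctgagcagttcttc
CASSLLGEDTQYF, TRBV12-2: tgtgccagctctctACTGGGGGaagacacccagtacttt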

How the data were processed

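TCR β rearrangements of 4 sorted CD8+ T-cell libraries were analysed. Each entry of a deposited table holds, per the file headers, a CDR3 with V, D and J hits and a clone count. These deposited counts are whole numbers with no normalization. The program was not given in the sources used here, nor was the unit counted (reads or molecules). Per the file headers a clone fraction is also listed, which matched count over library total, and the deposited quality score was not used to filter. The submitters' processing notes name mm10. Members and lists were chosen with earlier results of these data known.

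Segments were named from the first hit, and all 26 V and 12 J names matched RefSeq symbols. Segments with a tally of at least 10 over the fitted libraries were tested with edgeR 4.0.16 in R 4.3.3 (quasi-likelihood, library totals as offsets, Benjamini-Hochberg adjustment, threshold 0.05). Simulated tallies were run for TRBV use by in-frame clonotypes between genotypes, for both comparisons of frame, and for in-frame TRBJ use between members. The fit by counts and the remaining fits were not simulated. Comparisons within libraries had the library as a block. Single values were compared with two-sided exact permutation or sign-flip tests over libraries. Items planned to be named were the members, their neighbours by use and the 3 segments of most similar J use. Also planned were J segments past the threshold (the 5 most used where none passed) and the 3 largest clonotypes per library and member. The 5 clonotypes of all 4 libraries with the highest mean share completed the plan. Others were chosen after their values were seen. Alternatives were DESeq2 1.42.0, TMM, no filter, amino acid clonotypes, weighting by counts, the replicate block, leaving out each library, and leaving out clonotypes that had 1 count, tied hits, a near-identical larger neighbour or a low share. Python 3.11.15, numpy 2.4.6, pandas 2.3.3, SciPy 1.17.1 and matplotlib 3.10.9 were used.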

Additional observations from a re-analysis of the deposited data

How the results depend on the processing

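Of 519 recomputed values, 148 of the main comparisons and 338 of single segments, residues and added comparisons were classed as unchanged. For single segments and residues this meant the same direction and side of the threshold. For numbers of called segments it meant within 1.5 times the count. Differences of a single value per library only had to keep their direction. Those given above as more than 1.5 times smaller were thus classed as unchanged. Called segments between genotypes moved from 0 mainly without Vsig4-deficient 1. The ranges over the left-out libraries were 0 to 12 (in-frame clonotypes), 0 to 1 (counts), 0 to 3 (out of frame), 0 to 2 (frame by genotype) and 0 to 1 (TRBJ within TRBV12). DESeq2 called 1 segment by counts. With 1 library left in a group, that library is assumed to vary like the others. The TRBV12-1 difference between genotypes by clonotypes (-0.01) turned to 0.052 with DESeq2, to 0.067 with TMM and to 0.11 without Vsig4-deficient 2 (range over left-out libraries -0.14 to 0.11), and that of TRBV12-2 out of frame (-0.09) to 0.047 without it. Mean CDR3 length turned to 0.00047 residues between genotypes and to -0.012 between members without Vsig4-deficient 2. Over the left-out libraries these lengths ran from -0.014 to 0.00047 and from -0.012 to 0.010. Weighted by counts the length differences were -0.050 between members and -0.0074 against other TRBV. Out of frame, 1 TRBJ differed between members without clonotypes of 1 count. The causes were not tested.

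Same-numbered libraries correlated at 0.147 (in-frame clonotypes), -0.200 (counts), 0.239 (out of frame) and 0.270 (TRBJ within TRBV12) in their deviations from the group means, so the numbers were not taken to pair them. With the replicate block 1 TRBJ within TRBV12 was called between genotypes (TRBJ2-3, -0.25, adjusted p = 0.0225, edgeR), and TRBV calls stayed at 0 by clonotypes, by counts and out of frame. The crossed replicate block, added after the data were seen, also called 0 TRBV by counts. With 2 libraries per genotype and 785 to 1260 out-of-frame clonotypes per member, depth limits the out-of-frame J comparison.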

Other observations

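Clonotypes with 1 count made up 18.1%, 17.5%, 19.3% and 36.6% of in-frame TRBV12 clonotypes (first both wild-type, then both Vsig4-deficient libraries), and the last of these stands apart. Out-of-frame TRBV12-1 clonotypes averaged 4.00, 3.53, 3.95 and 8.45 counts, and those of TRBV12-2 2.92, 2.77, 3.40 and 3.53. Only 0.214% to 0.647% of out-of-frame TRBV12 clonotypes lay 1 inserted or deleted base from an in-frame clonotype with at least 20 times the count. The motif GQG was found in 4.35% ± 0.234 of TRBV12-2, 3.17% ± 0.183 of TRBV12-1 and 3.45% ± 0.123 of other in-frame clonotypes (SD, n = 4), and the members do not overlap. GQG and the other motifs were chosen after the data were seen.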
